A study of Arabidopsis thaliana with 6 samples.

Results

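The transcripts described here read low on both the glc and the zer array of an Arabidopsis thaliana seedling series. For each probe set, m was taken as the lowest signal of the arrays wat, OMG, DOG and man. A probe set was a member when m was at least 60 and when both glc and zer were at or below 0.65 times m. Of 22746 probe sets, 119 met these values, and 12 of them were set aside by name (GAT1_2.1, WRKY6, ASPGB1, ATL8, IVD, MCCA, AKINBETA1, STZ, XTH18 and 3 unnamed probe sets), which left 107 members. The members were chosen from the signals of all 6 arrays, so their low readings in glc and zer are a description and support nothing further.

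The series has 6 groups of 1 array each, titled zer, glc, wat, OMG, DOG and man, and every array held total RNA of entire Col-0 seedlings at stage 1.02. All groups grew at 23 °C in continuous light on the same agar medium after cold stratification. The group names come from the sample titles, and the labels enter no treatment, dose or duration for any sample. Because its title is about non-metabolised analogs of glucose, glc is read as glucose and OMG and DOG as analogs, while wat, zer and man are kept as written because nothing in the sources used here spells them out. How many seedlings or pools gave each RNA is not given in the sources used here. With 1 array a group, no difference below has a replicate check, and the values are given without tests.

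In plants, glucose is both a fuel and a signal. Transcripts for breaking down amino acids, lipids and proteins are commonly repressed when sugar is plentiful and raised in darkness or starvation, a programme tied to the energy-sensing kinase SnRK1. Hexokinase phosphorylates glucose and also acts as a glucose sensor, and the series title asks about sensing that does not depend on it. Sugar also bears on growth, the cell wall, hormones and stress transcripts in seedlings.

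Over the 107 members the median log2 difference from the median of wat, OMG, DOG and man was -1.31 in glc and -0.97 in zer. This corresponds to 2.49-fold below in glc and 1.96-fold below in zer. Over all 8485 probe sets with m of at least 60 the same medians were 0.01 and 0.00. Signals under the 40th percentile of their array (27.2 in glc, 28.8 in zer) were raised to it before a fold was taken, and such folds are lower bounds. In glc, 79 members were at least 2-fold below the median of the 4 arrays, 35 at least 3-fold and 12 at least 4-fold; over all 8485 probe sets 2.14% were 2-fold below. In zer, 51 members were 2-fold below, beside 1.19% over all, 6 were 3-fold below and 1 was 4-fold below. Both arrays were 2-fold below for 41 members. The rule puts both arrays low, so these counts follow in part from it. Shares over all probe sets were not taken for the 3-fold and 4-fold counts or for both arrays.

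Among the 8485 probe sets, 312 (3.68%) were at or below 0.65 of m in glc and 206 (2.43%) in zer. Both held for the 119 (1.4%), which are 38.1% of the first list and 57.8% of the second. These 2 lists share the arrays behind m, so a high reading there enters both. The opposite pattern, glc and zer both at or above 1/0.65 times the highest of the 4 arrays with both signals at least 60, was met by 10 of 8818 probe sets (0.113%). Low in both was therefore the more common of these patterns on these arrays.

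**Figure D1:**
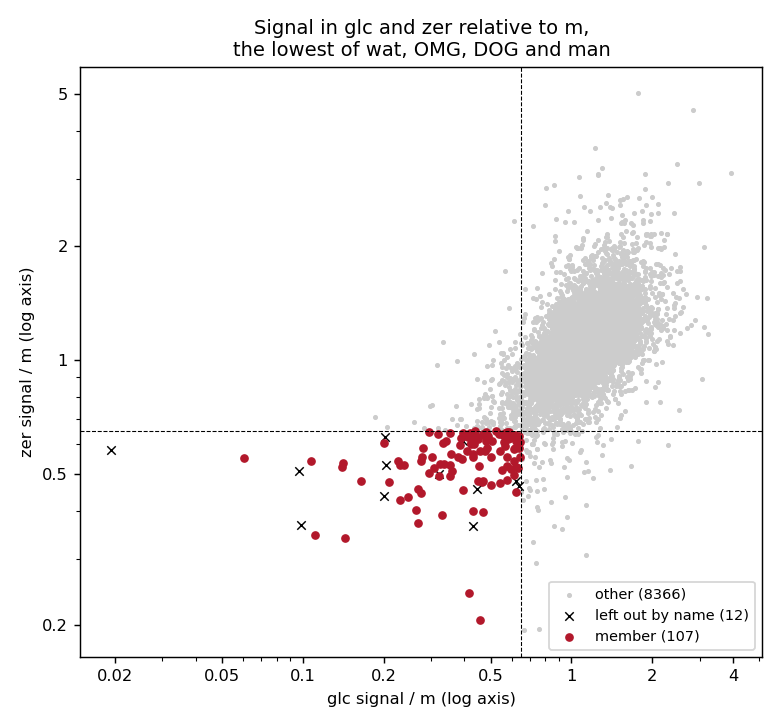
Signal in glc (horizontal) and zer (vertical) divided by m, the lowest of wat, OMG, DOG and man, both on log axes, for the 8485 probe sets with m of at least 60. Dashed lines mark 0.65; the 107 members lie in the lower left with the 12 that were set aside by name, and glc reaches further down than zer.

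Some control probe sets read the 3' and the 5' end of the same plant transcript. Zer and glc were the highest arrays in the actin and ubiquitin pairs but not in the GAPDH pairs. The 3' to 5' signal ratio of one actin pair was 7.48 in zer and 6.41 in glc, beside 4.66 in wat, 4.04 in OMG, 3.46 in DOG and 4.55 in man. The other pairs were closer together. A second actin pair gave 1.86 in zer, 1.76 in glc and 1.55 to 1.72 on the other arrays. One ubiquitin pair gave 2.84 in zer, 2.73 in glc and 2.24 to 2.48 elsewhere, and the other gave 1.96, 1.85 and 1.80 to 1.84. Zer and glc were the highest arrays in 4 of 6 such pairs; in both GAPDH pairs glc lay among the other arrays, at 1.26 and 0.864. Probe positions of the members were not used here, and the part of this ratio in their low readings was not tested.

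**Figure D2:**
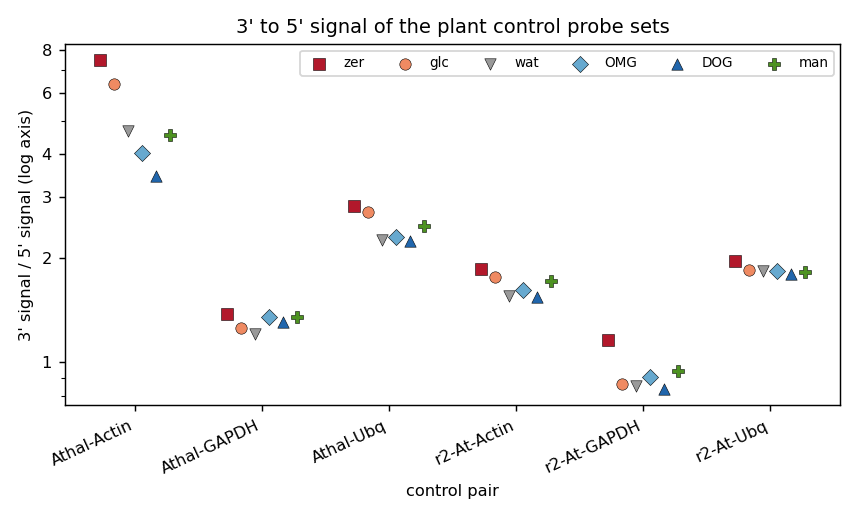
Ratio of 3' to 5' signal (log axis) of 6 plant control pairs on each of the 6 arrays, 1 point per array. Zer is the highest array in all 6 pairs, and zer and glc are the highest arrays in 4 of them, most clearly for the first actin pair at 7.48 and 6.41.

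Tissue make-up was read from few probe sets. Of 5 markers of green tissue 2 were measured, and their summed signal was 5565.9 in zer and 4619.2 in glc, within 4562.1 (wat) to 5274.4 (OMG) for glc and above that range for zer. Within that sum LHCB4.2, a light-harvesting protein gene, read 1489.7 in glc, the lowest of the 6 arrays, while RCA, the Rubisco activase gene, read 3129.5 there and 2776.9 to 3309.7 on the others. Of 5 root markers 3 were measured, with a sum of 3392.7 in zer and 3106.7 in glc both above the range of 2715.9 (man) to 3079.9 (OMG) on the other arrays. Nearly all of the root sum was PYK10, at 3311.3 in zer and 3015.8 in glc. No measured probe set was named for any of the 4 seed markers alone. In whole seedlings fewer cells of a type and less RNA per cell cannot be told apart.

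Of the 107 members, 44 were named for a single gene, 2 for several genes and 61 are unnamed here. Of the 44, 4 carry a symbol and the others a locus identifier. Roles below that the name table does not give are general background on the locus. All 44 are given with their signals, ordered by role. The grouping by role was made with the values known, and shares of each role over all named probe sets were not taken.

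Several members act in transport. MTP11, a manganese transporter of internal membranes, read 291.0 in zer and 221.1 in glc, beside 610.1 in wat, 514.5 in OMG, 527.4 in DOG and 620.0 in man. AT5G66650, of the calcium uniporter family, read 65.3 in zer and 35.1 in glc, beside 174.2, 164.6, 152.2 and 275.2 in wat, OMG, DOG and man. It was 4.83-fold below the median of the 4 arrays in glc and 2.59-fold below in zer, and its man signal stood apart upward. AT2G40420, of an amino acid transporter family, read 219.0 in zer and 136.6 in glc, beside 351.4, 351.8, 365.9 and 479.3. AT1G66760, of the MATE efflux family that exports metabolites, read 131.8 in zer and 88.8 in glc, beside 234.1, 226.6, 202.9 and 287.8. In all of these transporters glc was the lowest array and man the highest.

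Proteases and a protease inhibitor were among the named members. AT3G19390, a papain-like cysteine protease with a granulin domain, read 149.8 in zer and 100.4 in glc, beside 339.1 in wat, 313.2 in OMG, 283.9 in DOG and 421.3 in man. AT1G66180, of the aspartyl protease family, read 675.1 in zer and 523.1 in glc, beside 1219.0, 1364.0, 1345.2 and 1586.3 in the same order. AT1G72060, a serine protease inhibitor, read 136.3 and 89.9, beside 225.9, 217.7, 220.4 and 256.0. The cysteine protease was 3.25-fold below the median of the 4 arrays in glc, the aspartyl protease 2.59-fold and the inhibitor 2.48-fold.

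Nitrogen and carbon metabolism had single enzymes. AAH, allantoate amidohydrolase, releases ammonium from the purine breakdown product allantoate. It read 135.0 in zer and 122.6 in glc, beside 209.5 in wat, 220.3 in OMG, 216.1 in DOG and 225.9 in man, so it lay close to the threshold. AT1G18270, which holds a ketose-bisphosphate aldolase domain, read 197.5 in zer and 147.4 in glc, beside 306.0, 350.4, 330.2 and 331.9. AT2G32150, of the haloacid dehalogenase-like hydrolases, read 290.7 and 148.3, beside 601.4, 561.4, 536.5 and 715.1. It was 3.92-fold below the median of the 4 arrays in glc and 2.00-fold below in zer. AT1G02660, a lipase of plastids, read 80.2 and 56.5, beside 133.2, 156.5, 163.5 and 151.9. Among these enzymes the hydrolase AT2G32150 had the widest distance between glc and zer.

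Redox and detoxification enzymes formed another part of the set. AER, an alkenal reductase that detoxifies reactive products of lipid peroxidation, read 646.7 in zer and 677.8 in glc, beside 1153.7 in wat, 1109.6 in OMG, 1236.8 in DOG and 1350.2 in man. AT5G16980, the gene next to it and related to it, read 97.1 and 112.1, beside 223.6, 174.4, 216.6 and 283.4. For both, zer was slightly lower than glc and man was the highest array; how far their probes could read each other's transcript was not tested. AT5G39580, a class III peroxidase, read 397.6 in zer and 243.1 in glc, beside 746.2, 896.5, 1021.5 and 986.1. Its 4 higher arrays ran from wat upward to DOG, and glc was 3.87-fold below their median. AT3G62950, a glutaredoxin of the plant-specific CC type, read 32.6 in zer and 14.2 in glc, beside 78.6, 79.0, 61.6 and 77.9. AT1G19540, of an isoflavone reductase-like family, read 60.2 and 28.8, beside 118.3, 102.8, 108.6 and 113.4. The glutaredoxin signal in glc was under the floor, which makes it at least 2.88-fold below the median of the 4 arrays.

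Growth, cell wall and hormone genes were present too. EXO, the brassinosteroid-responsive EXORDIUM gene that promotes leaf growth, read 380.2 in zer and 415.6 in glc, beside 721.5 in wat, 820.4 in OMG, 1032.4 in DOG and 825.3 in man. It is one of 10 members with their highest signal in DOG. AT1G62510, of the lipid-transfer protein family, read 606.2 in zer and 438.0 in glc, beside 1099.6, 1029.6, 1006.0 and 1156.6. AT1G12010, an ACC oxidase that makes ethylene, read 71.6 and 87.4, beside 143.5, 192.5, 175.3 and 187.0. EXO and the ACC oxidase read lower in zer than in glc, which was the less frequent order.

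Signalling and stress genes gave the following values. AT2G23450, a wall-associated kinase-like gene, read 97.7 in zer and 86.5 in glc, beside 152.4 in wat, 160.4 in OMG, 157.1 in DOG and 169.3 in man. AT4G18950, a protein kinase of the integrin-linked type, read 91.2 and 111.3, beside 175.4, 175.4, 185.2 and 195.3. AT1G10340, an ankyrin repeat gene, read 66.8 and 42.1, beside 125.5, 135.9, 165.5 and 161.6. The kinases lay within 2-fold of the median of the 4 arrays in both glc and zer, while the ankyrin gene was 3.53-fold below it in glc. AT4G33980, a cold-regulated gene that also takes part in the clock, read 36.3 in zer and 43.1 in glc, beside 77.5, 79.9, 75.0 and 103.0. AT4G37220, of the WCOR413 cold acclimation family, read 44.3 and 19.4, beside 174.2, 92.6, 92.8 and 160.4. For this gene the 4 higher arrays fell into wat and man above OMG and DOG, a 1.88-fold range that was the widest among the members.

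The sugar-repressed gene AT4G27450, of the aluminium-induced protein family, read 238.1 in zer and 205.5 in glc. It read 452.4 in wat, 454.2 in OMG, 454.1 in DOG and 514.4 in man, so wat and both analog arrays lay within a few units of each other. AT3G07350, AT2G20670 and AT2G38820 belong to a plant family whose domain has no known function. AT3G07350 read 69.5 in zer and 74.4 in glc, beside 160.5, 185.1, 148.7 and 199.6 in wat, OMG, DOG and man. AT2G20670 read 396.5 and 199.2, beside 736.9, 685.8, 622.6 and 899.9. AT2G38820 read 68.6 and 44.6, beside 113.0, 121.7, 106.6 and 115.7. The first read much the same in glc and zer, and the others read lower in glc. That these members share a family was seen after their values were known.

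AT1G19530 read 228.4 in zer and 73.3 in glc, beside 728.0 in wat, 724.7 in OMG, 659.3 in DOG and 935.0 in man, and had the lowest ratio among the members named for a gene, at 0.346 of m. It was 9.91-fold below the median of the 4 arrays in glc and 3.18-fold below in zer, and its neighbour on the chromosome is the member AT1G19540. AT3G49790 read 100.3 and 56.9, beside 247.0, 253.4, 230.8 and 302.7. Zer lay between glc and the other arrays for this gene as well. AT4G25580 read 33.1 in zer and 8.9 in glc, beside 66.9, 63.4, 68.4 and 84.5. AT3G45730 read 67.2 and 22.3, beside 130.6, 110.9, 121.3 and 185.2. For the last 2 genes the glc signal was under the floor, so they were at least 2.49-fold and at least 4.63-fold below in glc.

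Other members of unstated role follow. AT3G20340 read 87.8 in zer and 59.8 in glc, beside 160.1 in wat, 158.6 in OMG, 179.4 in DOG and 209.8 in man. AT2G36220 read 37.9 and 34.2, beside 68.3, 75.9, 73.0 and 92.6. AT1G07040 read 190.1 and 119.8, beside 376.5, 364.3, 336.9 and 447.1. All of these had man as the highest array and glc as the lowest. AT1G76600 read 233.7 and 219.6, beside 532.9, 420.7, 404.8 and 473.8. AT3G15630 read 498.1 and 506.6, beside 973.9, 848.4, 791.3 and 957.7. AT1G04985 read 79.7 and 80.6, beside 130.1, 132.1, 131.5 and 130.4. In the last of these the 4 higher arrays were nearly equal, as were zer and glc, while in AT1G76600 and AT3G15630 wat was the highest array.

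AT5G56100 read 278.1 in zer and 155.5 in glc, beside 495.5, 463.8, 453.8 and 592.2 in wat, OMG, DOG and man. AT5G01740 read 220.4 and 210.2, beside 386.5, 354.4, 403.0 and 474.2. AT2G18690 read 102.4 and 141.4, beside 227.5, 261.0, 293.7 and 387.9. The last of these was lower in zer than in glc, by a log2 difference of 0.47. AT1G68440 read 295.9 and 217.0, beside 464.3, 475.4, 518.0 and 552.6. AT3G06750 read 234.0 and 254.9, beside 412.6, 398.9, 401.6 and 417.0. AT1G54740 read 258.7 and 142.2, beside 403.8, 457.4, 435.7 and 518.5. AT1G54740 was 3.14-fold below the median of the 4 arrays in glc and 1.73-fold below in zer, whereas AT3G06750 was 1.60-fold and 1.74-fold below.

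**Figure D3:**
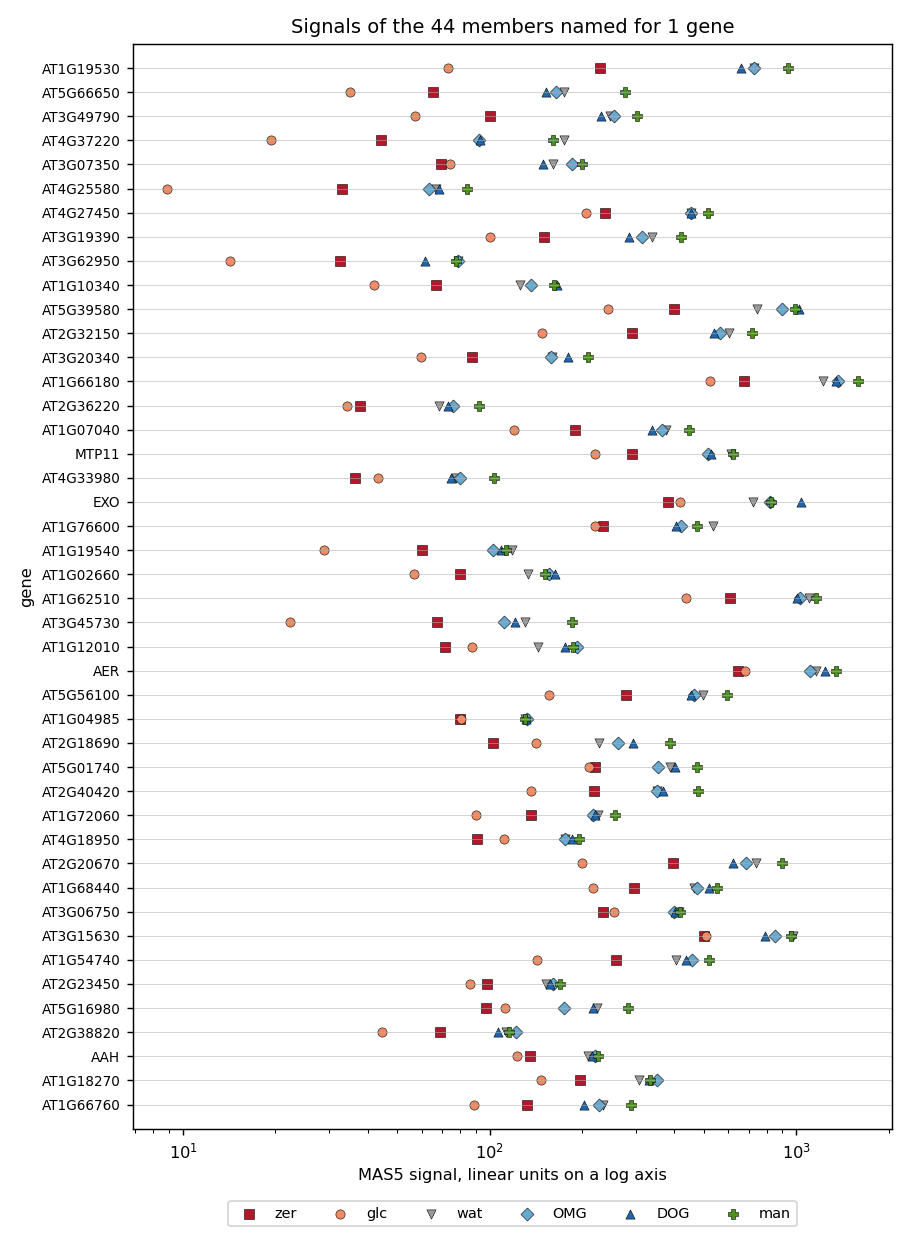
Signals (linear units on a log axis) of the 44 members named for 1 gene, 1 row per gene and 1 point per array, ordered from the lowest ratio of the higher of glc and zer to m at the top. Zer and glc lie left of the other arrays in every row, as the rule requires; man is the rightmost point in 31 of the 44 rows.

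The unnamed members include some of the lowest ratios. Probe set 262047_at read 95.5 in zer and 40.3 in glc, beside 368.6 in wat, 339.0 in OMG, 280.5 in DOG and 487.8 in man, the lowest ratio to m of any member (0.341). Next were 247925_at with 391.9 and 282.8, beside 1054.3, 1129.7, 1237.3 and 1179.6, and 248207_at with 222.5 and 187.1, beside 609.2, 568.0, 577.0 and 736.3. The smallest distance from the median of the 4 arrays among these was 2.67-fold, for 248207_at in zer. Probe set 258395_at read 28.9 in zer and 18.9 in glc, beside 103.0, 81.2, 71.6 and 119.3, with glc under the floor. Probe set 264788_at read 29.5 and 50.3, beside 121.0, 129.6, 135.4 and 167.8, which put zer 4.49-fold below the median of the 4 arrays; only 258975_at, whose zer signal was under the floor, read lower against m in zer. The 2 probe sets that name several genes read 173.9 and 116.5 in zer and 59.6 and 82.4 in glc, with 362.3 and 202.2 as their lowest other signals.

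Glc was lower than zer in 84 of the 107 members (78.5%), beside 48.7% of all 8485 probe sets. The rule does not fix this order, yet it is a comparison of single arrays. The median log2 difference of glc minus zer was -0.37 over the members and 0.01 over all. Glc was at least 1.5-fold below zer in 34 members, beside 3.88% of all probe sets, and zer was at least 1.5-fold below glc in 2, beside 4.02%. The other 71 members lay within 1.5-fold. For most members zer read closer to the other arrays than glc did. Glc was 2-fold or more below zer for 10, and no share over all was taken at that step. The members were chosen on these same glc and zer signals, and the part of this choice in the order was not tested.

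With signals under the floor raised to it, the distance between glc and zer was widest in 3 unnamed members and AT1G19530. Members under the floor in glc have only a bound and cannot be ranked against these; AT4G25580, at 33.1 in zer and 8.9 in glc, is one of them. Probe set 264524_at read 404.6 in zer and 80.2 in glc, beside 927.6 in wat, 854.8 in OMG, 744.5 in DOG and 1132.5 in man, a log2 difference of -2.33. Probe set 254001_at read 109.7 and 12.1, beside 253.3, 240.2, 199.1 and 342.3, and its glc signal was under the floor, which gives a log2 difference of -2.01 or lower. Probe set 264777_at read 399.0 and 104.7, beside 873.9, 899.0, 743.7 and 1040.1, a difference of -1.93, and AT1G19530 had one of -1.64. In the other direction stood 264788_at at 0.77, 258975_at at 0.74 or more (21.6 in zer, under the floor, and 48.0 in glc, beside 104.6, 105.6, 105.3 and 146.6), AT2G18690 at 0.47 and AT1G12010 at 0.29. The 264524_at, 254001_at and 264777_at signals in zer were each about as far below the other arrays, between 2.20-fold and 2.25-fold.

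**Figure D4:**
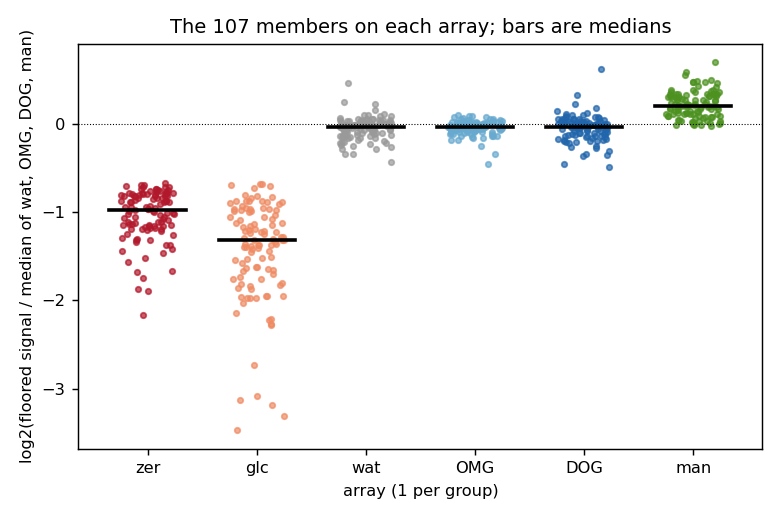
Log2 of the signal over the median of wat, OMG, DOG and man for each of the 107 members (points, spread sideways at random) on each array, with signals under the floor raised to it; black bars are medians. The medians are -0.97 in zer, -1.31 in glc, -0.03 in wat, OMG and DOG, and 0.21 in man.

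Among the 4 arrays that define m, man read highest for most members. It was the highest of the 4 in 86 of the 107 members (80.4%), beside 27.9% of all 8485 probe sets, and it was the lowest of the 4 in 0 members, beside 31.1%. Of the others, DOG was highest in 10 members, OMG in 6 and wat in 5, beside 22.4%, 25.3% and 24.4% of all probe sets. Wat was the lowest of the 4 in 46 members, DOG in 38 and OMG in 23, beside 27.3%, 22.2% and 19.4%. The rule uses the lowest of the 4 and so could favour an array that is never lowest; with man left out of m, 109 probe sets met the rule and man was highest of the 4 in 86 of them (78.9%). The size was small: the median log2 difference of man from the median of wat, OMG and DOG was 0.25 over the members and -0.01 over all, and the members ran from -0.04 to 0.79. Man is 1 array, so a feature of that array and a difference of its group cannot be told apart.

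**Figure D5:**
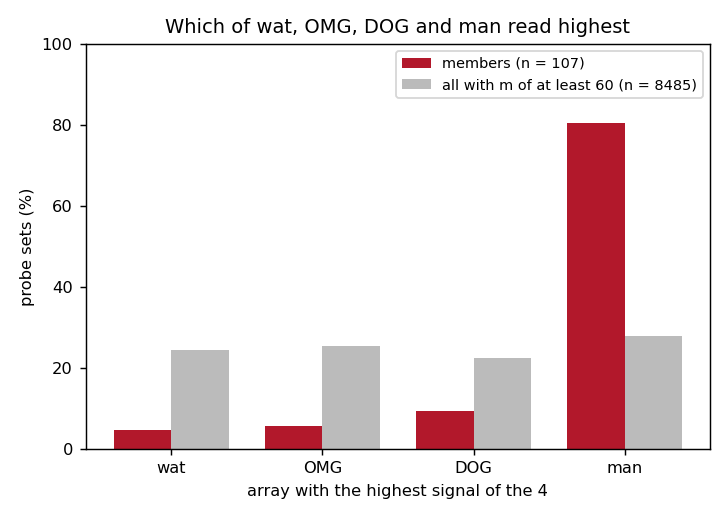
Percent of probe sets whose highest signal among wat, OMG, DOG and man was on each array, for the 107 members (red) and for all 8485 probe sets with m of at least 60 (grey). Man holds 80.4% of the members and 27.9% of all; wat, OMG and DOG hold 4.67%, 5.61% and 9.35% of the members.

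Man was at least 1.5-fold above the median of wat, OMG and DOG in 4 members, beside 0.46% of all probe sets. These were AT4G37220, AT5G66650, AT3G45730 and the unnamed 250287_at, which read 371.8 in man, beside 221.5 in wat, 230.4 in OMG, 263.4 in DOG, 137.3 in zer and 99.4 in glc. At the other end the difference was -0.04 for AT1G02660 and -0.01 for AT3G62950, 260205_at and AT1G04985. Probe set 260205_at read 88.7 in zer, 102.9 in glc, 172.3 in wat, 189.0 in OMG, 195.7 in DOG and 187.4 in man. Of the genes with the 4 largest man differences, AT4G37220 also read high in wat, and the others did not.

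The highest over the lowest of the 4 signals had a median of 1.30 over the members and 1.19 over all, so the members were the more spread. It was under 1.5 for 92 members, and no share over all was taken for that count. One member was at least 1.5-fold higher in DOG than the median of wat, OMG and man, beside 0.2% of all: the unnamed 245757_at, with 280.9 in DOG, 177.8 in wat, 165.5 in OMG, 185.2 in man, 91.7 in zer and 50.2 in glc. It was named after its values were seen. With 1 array each and no stated dose, these values do not show whether the analogs leave these transcripts as wat does.

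The threshold runs through a continuous range of values. The 4 named members nearest to it were AT2G38820, AAH, AT1G18270 and AT1G66760, with ratios of 0.6435, 0.6444, 0.6454 and 0.6496. Just outside were AT1G09500 (0.6507), AT2G15695 (0.6508), AT5G57655 (0.6515) and AT3G26510 (0.6554). AT1G09500 read 43.1 in zer and 62.6 in glc, beside 99.9, 96.4, 96.2 and 149.2 in wat, OMG, DOG and man. AT3G26510 read 547.0 and 495.1, beside 834.6, 899.4, 871.3 and 1018.3. Ratios over 0.60 were held by 48 of the 107 members, and 72 further probe sets lay between 0.65 and 0.70.

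Pathway lists were read for where the members sit among genes of known roles. Only probe sets named for 1 gene count as measured, and the lists were chosen with earlier results known. Of 35 sugar-repressed and low-energy genes, 15 were measured and 13 had m of at least 60. Glc was at or below 0.65 of m in 12 of these and zer in 6, beside 3.68% and 2.43% of all 8485 probe sets, and the medians were -1.43 and -0.65 on the log2 scale. The list includes genes set aside by name and was chosen with earlier results known, so these shares are a description only. The 6 low on both arrays were AT4G27450, which is a member, and MCCA, IVD, ATL8, GAT1_2.1 and AKINBETA1, which were set aside by name. Of the others, PPDK, which makes phosphoenolpyruvate from pyruvate, read 435.5 in zer and 238.8 in glc, beside 650.2, 721.2, 621.5 and 874.8 in wat, OMG, DOG and man. ETFQO, which passes electrons from amino acid breakdown to the respiratory chain, read 140.6 and 84.4, beside 210.4, 207.1, 189.6 and 220.6. Both missed the threshold in zer, with ratios of 0.701 and 0.742.

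No other list held a member named for 1 gene. The 61 unnamed members and the 2 named for several genes could not be matched to any list. Of 18 autophagy genes 13 were measured and 10 had m of at least 60; glc was low in 2 of them and zer in 0, beside the same 3.68% and 2.43% over all, with medians of -0.38 and -0.14. In that list ATG8E, which encodes a protein that coats forming autophagosomes, read 347.1 in zer and 292.8 in glc, beside 469.7, 533.9, 540.1 and 582.0 in wat, OMG, DOG and man. ATG8E was picked with its values known and had the lowest log2 value of the list on both arrays, -0.875 in glc and -0.63 in zer. Others of the list were near the median of the 4 arrays in zer, such as ATG8C at 0.02. Of 18 touch, wounding and early stress genes 3 were measured and 2 had m of at least 60, and both, WRKY6 and STZ, were low in glc and zer but set aside by name. Fatty acid oxidation and the glyoxylate cycle had 2 measured genes of 11, with glc low in 1 of them (ICL) and zer low in 0. No gene was low in glc or zer among the S1 and C class bZIP factors (2 measured of 9), Aux/IAA (2 of 18) and the clock (1 of 10). The same held for abscisic acid and osmotic stress (3 of 14), nuclear photosynthesis (2 of 11) and ribosome biogenesis (3 of 10). In the same order, only 2, 1, 1, 1, 2 and 2 genes had m of at least 60 and could be called. Of the type-A response regulators (2 of 10) none reached that m, so none could be called. The lists for class II trehalose-phosphate synthases (7 genes), KMD F-box proteins (4), JAZ (10) and nitrogen assimilation (12) had no measured gene. Here that means no probe set named for a gene of these lists alone.

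Some members lie side by side in the genome. Among genes measured alone by a probe set with m of at least 60, 761 pairs were neighbours on a chromosome. At least 1 member was in 16 of these pairs and 2 members in 2 of them, AT1G19530 with AT1G19540 and AER with AT5G16980. No expected number of such pairs was computed. Whether probes of the related genes AER and AT5G16980 read each other's transcript was not tested. The order of genes was taken from the reference table of assembly TAIR10.1.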

How the data were processed

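The authors deposited 1 linear intensity per probe set and array. MAS5 made these signals, per the submitters' processing notes, with no version or setting given. Each deposited array had a mean of 100.0 once 2% of values were trimmed from either end, so a change shared by most transcripts is hidden. Of 22810 probe sets, 64 controls were left out. No detection calls were used; signals under the 40th percentile of an array were raised to it for folds. Names came from the platform annotation, updated through a table of assembly TAIR10.1; 13513 probe sets name 1 gene, 503 several and 8730 are unnamed here. The members, lists and comparisons were chosen with earlier results of these data known. Genes are named by this rule: signals for the 40 named members with the lowest ratio, the 4 nearest the threshold on each side, the 5 unnamed members with the lowest ratio and the 4 extremes each way of glc against zer and of man against wat, OMG and DOG. Measured genes of the pathway lists could also be named, and PPDK, ETFQO and ATG8E were picked from them with their values known. Also given were 245757_at, named after its values were seen, and the 2 members that name several genes. The sequence motif planned for promoters was not analysed here, as no promoter sequence was used. Alternatives were equal medians, quantile normalization, other thresholds and other references. The code of the rule was run on simulated data with planted changes away from the threshold, which does not measure its error on these arrays. Precision is limited by the number of arrays. Python 3.11.15, pandas 2.3.3 and numpy 2.4.6 were used.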

Additional observations from a re-analysis of the deposited data

How the results depend on the processing

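The set's size moved with its threshold and with its reference. It held 59 probe sets at 0.6, 176 at 0.7 and 207 with the median of the 4 arrays as m, beside 107; glc was below zer in 48, 130 and 146 of these and man highest of the 4 in 46, 139 and 165. The median log2 difference in glc was then -1.58, -1.15 and -1.09 and in zer -1.14, -0.84 and -0.85. With equal medians of the arrays they were -1.28 and -0.95 (134 members), after quantile normalization -1.32 and -0.9996 (103), with a minimum of 40 -1.29 and -0.96, with a minimum of 100 -0.94 in zer, and with the names put back -1.37 and -0.99. Leaving each of wat, OMG, DOG and man out of m gave 109 to 136 probe sets, medians of -1.32 to -1.24 in glc and -0.95 to -0.94 in zer, 85 to 103 with glc below zer and 86 to 107 with man highest. The share with glc below zer ran from 70.5% to 81.4% and that with man highest from 77.7% to 83.6% over the 12 alternatives. The counts of man as highest were added after seeing the data. Under all 12, 51 members remained, 16 of them named for 1 gene, and under both other scalings 101 of 107 remained. Members were lost only at 0.6 (59 kept), with a minimum of 100 (99 kept) and after quantile normalization (101 kept). A threshold of 0.7, a minimum of 40, the median as m or an array left out of m only loosens the rule. So does putting the names back, and none of these settings could drop a member. The cause of the differences was not tested. No paired analysis was possible because each group is 1 array. The share of promoters with a motif was not run. Signals near the floor limit folds: 7 members were under it in glc and 1 in zer.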
